A study of Rattus norvegicus with 100 samples.

Results

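The 39 genes described here act in the cell cycle and in DNA replication. They were chosen as a list of named genes and not by a filter on their response, though earlier results of these data were known. Each gene was represented by the probe set with that single gene symbol and the highest mean over all arrays. All 39 had such a probe set, among 13439 genes on the array that did. The data are 100 Affymetrix arrays of primary rat hepatocytes exposed to GW7647, a synthetic agonist of the nuclear receptor PPARα, with 1 array per culture. Rats Rs627, Rs628, Rs631 and Rs632 (4 in all) each supplied cells, which were cultured on collagen IV with Geltrex. They were sampled after 2, 6, 12, 24 and 72 h at 0, 0.001, 0.01, 0.1, 1 or 10 µM of the agent, which gave 30 groups of 2 to 4 arrays. In that order of concentrations the 2 h groups held 3, 3, 3, 4, 3 and 4 arrays, the 6 h groups 4, 3, 3, 3, 4 and 3, and the 12 h groups 3, 3, 2, 2, 4 and 3. The 24 h groups held 3, 4, 4, 3, 4 and 3 arrays, and the 72 h groups 4, 4, 4, 3, 4 and 3. Solvent in the 0 µM cultures is not mentioned in the labels, which also give no age, sex or strain of the rats. The question put to these genes is whether a PPARα agonist acts as a mitogen in rat hepatocytes.

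A dividing cell passes G1, in which D and E cyclins with their kinases lift the block that the retinoblastoma protein puts on E2F transcription factors. E2F then switches on the S phase genes, which supply deoxynucleotides and build the replication machinery, and the mitotic cyclins, kinases and checkpoint proteins follow in G2 and mitosis. Hepatocytes of an adult liver are mostly quiescent, and PPARα agonists are known to enlarge the liver and raise hepatocyte division in living rats and mice. Hepatocytes put into culture enter G1 but rarely go on to divide without added growth factors.

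Values are log2 intensities, and one at or under 5 was treated as not above background. A gene was tested where it lay above 5 in at least 3 arrays, which 8843 genes did (65.8%) and 28 of the 39 cell cycle genes did (71.8%). Levels of different probe sets are not comparable, so each gene is compared only with itself. The 75th percentile of the arrays ran from 6.42 to 7.27, and 5 arrays lay under 6.6: 1 of Rs627 (6 h, 10 µM), 1 of Rs632 (24 h, 1 µM) and 3 of Rs631 (2 h with 0.1 µM, and 24 h with 1 and 10 µM). By their deviations from the group means 98 of 100 arrays resembled their own rat most. The exceptions were both 0 µM arrays labelled Rs627 and Rs628 at 12 h. The array labelled Rs627 correlated at 0.89 with Rs628 and at -0.04 with its own rat, and the array labelled Rs628 at 0.71 with Rs627 and at -0.26 with its own. They are called the doubtful 12 h arrays, and results that rest on them are also given without them. Leaving them out leaves 1 control array at 12 h. Both belong to the same group, so their rat labels matter only for comparisons within a rat or with the rat as a block. The 11 hepatocyte markers measured were above 5 in all 100 arrays. Of 9 macrophage markers 6 were never above 5, of 11 stellate cell and fibroblast markers 5, of 6 bile duct markers 2, and all 8 endothelial markers were never above 5. The agent's own targets rose: Ehhadh, an enzyme of peroxisomal fatty acid oxidation, was higher by 3.46 at 10 µM and 6 h and by 4.82 and 4.92 at 1 and 10 µM and 72 h.

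The cell cycle genes fell into those of G1 and arrest, which these cultures expressed, and those of mitosis, which they hardly did. Never above 5 in any of the 100 arrays were 11 genes. They are Top2a (the topoisomerase of dividing cells), Ccna2 (cyclin A2), Ccnb1 (cyclin B1), Ccnd2 (cyclin D2), Mcm3 (a subunit of the replicative helicase), the mitotic kinases Aurka, Aurkb and Plk1, the checkpoint kinase Bub1b, Cdc20 (which activates the anaphase-promoting complex) and Birc5 (survivin). A further 8 passed the filter but had a mean at or under 5: Mki67, Ccnb2, Cdk1, Cdk2, Cdkn3, Mcm5, Mcm6 and Rrm2. Of 11 mitotic cyclins, kinases and partners 3 passed the filter, against 7 of 8 G1 genes, 6 of 7 licensing and fork genes, all 4 genes of nucleotide supply and all 7 inhibitor and stress genes. Above 5 in every array were 11 genes: Ccng1, Ccng2, Cdk4, Cdkn1a, Cdkn1b, Mcm7, Pcna, Tk1, Myc, Gadd45a and Gadd45b.

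**Figure D1:**
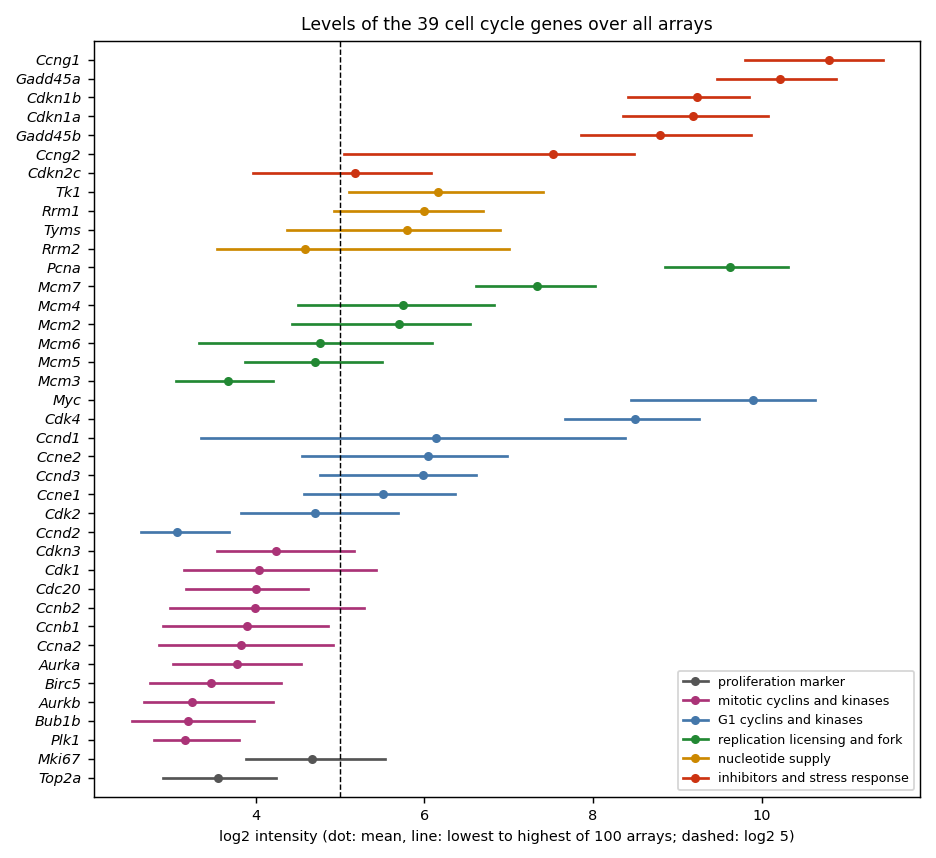
Log2 intensity (x axis) of the 39 cell cycle genes (y axis), coloured by role and ordered by mean within a role. Dots are means and lines run from the lowest to the highest of 100 arrays, and the dashed line marks log2 5. The 11 genes whose lines end left of it were never above it, and 8 of these 11 are mitotic genes. Positions of different probe sets along the axis are not comparable with each other, only with the dashed line.

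Rrm2, Mki67, Cdk1 and Ccnb2 were detected mostly or wholly in particular rats, unlike S phase genes such as Pcna, Mcm7 and Tk1, which were above 5 in every array. Rrm2, the small subunit of ribonucleotide reductase, was above 5 in 15 of 22 arrays of Rs627 and 15 of 21 of Rs628, but in 0 of 30 of Rs631 and 1 of 27 of Rs632. Its means by rat were 5.28, 5.34, 3.85 and 4.23. Mki67, which encodes the Ki-67 protein of dividing cells, was above 5 in 7 arrays of Rs627, 9 of Rs628 and none of Rs631 or Rs632. The mitotic kinase gene Cdk1 was above 5 in 5 arrays of Rs627 and 5 of Rs628 and none of the other rats, and all 4 arrays with cyclin B2 (Ccnb2) above 5 came from Rs628. Ccnd1, which encodes cyclin D1 of the G1 phase, had means of 6.93, 6.94, 4.62 and 6.55, so that Rs631 stood apart with 10 of 30 arrays above 5. As a description over the 100 arrays, differences between rats took 59.8% of the sum of squares of Rrm2 and 58.4% of that of Ccnd1, and differences between concentrations 1.4% and 2.6%. For Pcna and Tyms it was time, with 86% and 83.7%, and for Cdk2 the concentration took 30.4%.

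Without the agent, Pcna was the gene that fell with time in culture. In all following lists, values stand in the order Rs627, Rs628, Rs631, Rs632, and a rat without an array is left out. Pcna, the sliding clamp of the replication fork, read 9.87, 10.03 and 9.99 at 2 h (no Rs628), 9.10, 9.45 and 9.44 at 24 h (no Rs628) and 9.54, 9.53, 9.41 and 9.34 at 72 h. Every array at 24 h and at 72 h lay under every array at 2 h. The fall was -0.64 ± 0.11 (SE) at 24 h, or 1.56-fold (adjusted p = 0.000153), and -0.51 ± 0.10 at 72 h, or 1.43-fold (adjusted p = 0.00167). Pcna was the only one of the 28 genes called in either comparison: 0 higher and 1 lower at 24 h, where 0.204% of all genes tested were called higher and 1.21% lower, and 0 higher and 1 lower at 72 h, against 0.226% and 3.18%. The median change of the 28 was -0.14 and -0.12, against -0.12 and -0.17 over all genes tested. The fall at 72 h was lost after median centring (adjusted p = 0.317), after quantile normalization (0.0807), and without Rs631 (0.125) or Rs632 (0.0928).

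With the rat as a block, which compares cultures of the same animal, 3 genes were called lower and 0 higher at each time, where 4.86% and 12.5% of all genes were lower and 0.509% and 0.441% higher. The added genes were Ccng1 and Myc. Ccng1, a p53 target that encodes cyclin G1, changed by -0.36 at 24 h (adjusted p = 0.212, 0.00589 with the block) and by -0.32 at 72 h (0.14, 0.0107 with the block). Myc, a transcription factor gene that growth signals induce, changed by -0.45 (0.234, 0.0421 with the block) and by -0.51 (0.0634, 0.007 with the block). Tyms, the thymidylate synthase that makes dTMP for DNA, had 0 µM means of 5.79, 6.64, 6.28, 5.57 and 5.61 at the 5 times in order. Mcm6, a subunit of the replicative helicase, had 0 µM means of 5.10, 5.28, 5.05, 4.47 and 4.65. The comparisons of 6 and 12 h with 2 h were not among those tested.

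**Figure D2:**
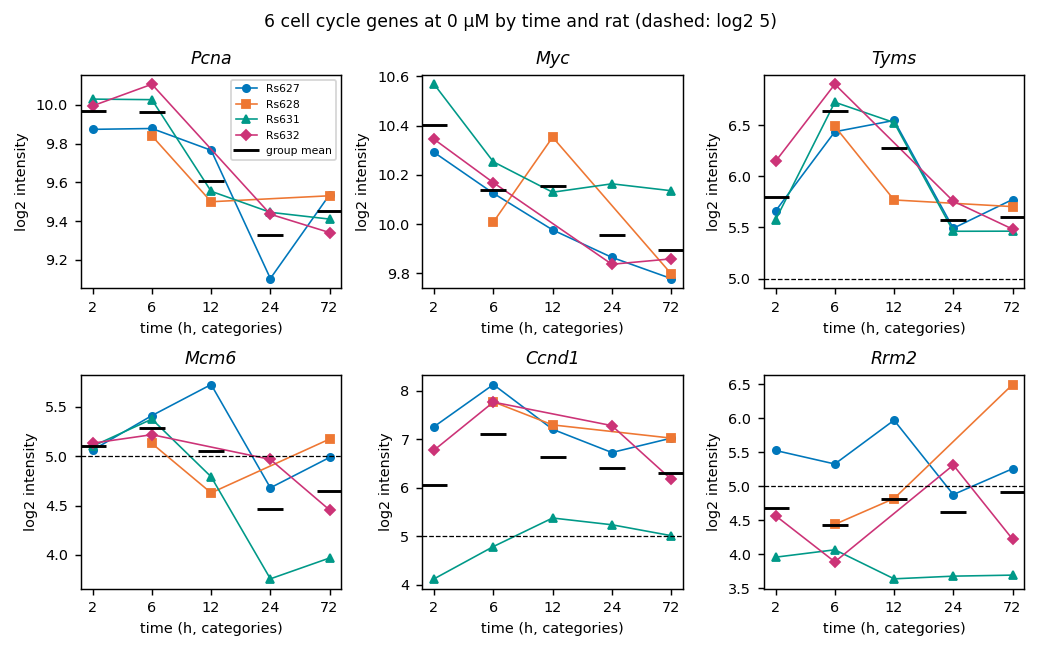
Log2 intensity (y axis) of 6 cell cycle genes at 0 µM against time (x axis, drawn as categories), 1 line per rat and a black bar for each group mean. The dashed line marks log2 5 where it lies in range. Pcna fell from 2 h to 24 h in each rat with both arrays, Tyms was highest at 6 h in group mean, and Ccnd1 and Rrm2 differed between rats more than between times.

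At 2 and 6 h no cell cycle gene was called at 1 or 10 µM, although the agent's targets had already risen. Limma called 0 of 28 genes at 1 µM and 2 h (1 at an unadjusted p under 0.05), where 0.351% of all genes were called higher and 0.0226% lower. At 1 µM and 6 h it called 0 (2 unadjusted), against 1.73% higher and 0.305% lower. At 10 µM it called 0 at 2 h (3 unadjusted), against 0.498% higher and 0.52% lower, and 0 at 6 h (7 unadjusted), against 1.56% higher and 2.74% lower. Median changes of the 28 genes were -0.03 and -0.09 at 1 µM and -0.07 and -0.22 at 10 µM, beside 0.01, -0.06, -0.09 and -0.19 over all genes tested.

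The rat block added a few early calls. At 10 µM and 2 h it called 1 gene higher and 2 lower, where 1.09% and 1.5% of all genes were called. Ccne2, the cyclin E2 gene of the G1 to S transition, read 6.17, 6.44 and 6.56 at 0 µM (no Rs628) and 5.71, 5.50, 5.67 and 5.41 at 10 µM, with no overlap (-0.82 ± 0.25, adjusted p = 0.114, 0.0135 with the block). Ccng2, the cyclin G2 gene linked to arrest, read 7.63, 7.01 and 7.47 against 6.91, 6.92, 6.62 and 5.05, again with no overlap (-1.0 ± 0.35, 0.248, 0.0211 with the block). Gadd45a, a growth arrest and DNA damage gene, read 9.69, 9.92 and 9.66 against 10.10, 10.58, 10.13 and 10.27 (0.52 ± 0.19, 0.325, 0.0232 with the block).

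At 6 h the block called Myc alone at 1 µM, 0 of 28 higher and 1 lower, where 2.95% of all genes were higher and 1.75% lower. Myc read 10.13, 10.01, 10.25 and 10.17 at 0 µM and 9.69, 9.64, 9.86 and 9.73 at 1 µM, lower in 4 of 4 rats (-0.41 ± 0.15, adjusted p = 0.235, 0.0294 with the block). At 10 µM it called 0 higher and 4 lower (Myc, Ccnd3, Cdk4 and Cdkn2c), against 2.87% and 11.6% of all genes. This group holds the low-signal array of Rs627, and the median of all genes there was itself shifted by -0.19.

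From 12 h on, 2 cell cycle genes rose, Tk1 and Cdk2. In the model without the rat they were the only ones called higher at 12, 24 and 72 h at either concentration. Tk1 encodes thymidine kinase 1, which salvages thymidine into dTMP and is normally made in S phase, and Cdk2 encodes the kinase that partners cyclins E and A at the start of S phase. The genes called lower at 24 or 72 h in the same model were Myc, Ccng1, Tyms, Mcm6, Mcm2 and Pcna. The falls thus included an immediate growth gene, a p53 target and parts of the replication machinery, while the gene of a salvage enzyme and that of a kinase rose. With the rat as a block, further genes were called, among them Gadd45a higher at 24 h and Ccnd1 lower at 24 and 72 h.

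The promoters of these genes are shown because Tk1 and Cdk2 rose while Tyms and Mcm6 fell at the same time of 72 h. They are the 250 bases before the RefSeq start in the GRCr8 build, which was available for 31 of the 39 genes. Both strands were searched for the E2F letters TTTCCCGC, TTTGGCGC and TTTCGCGC, which can overlap where they share bases on opposite strands, and for the mitotic CHR letters TTTGAA. Matches are in capitals.
Tk1, minus strand, chr10:103544778-103545027: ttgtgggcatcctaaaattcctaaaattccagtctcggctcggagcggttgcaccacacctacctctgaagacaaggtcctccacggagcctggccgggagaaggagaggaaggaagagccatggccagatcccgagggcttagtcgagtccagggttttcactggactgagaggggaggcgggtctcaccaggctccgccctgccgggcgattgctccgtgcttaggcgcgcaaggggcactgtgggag
Cdk2, minus strand, chr7:1721879-1722128: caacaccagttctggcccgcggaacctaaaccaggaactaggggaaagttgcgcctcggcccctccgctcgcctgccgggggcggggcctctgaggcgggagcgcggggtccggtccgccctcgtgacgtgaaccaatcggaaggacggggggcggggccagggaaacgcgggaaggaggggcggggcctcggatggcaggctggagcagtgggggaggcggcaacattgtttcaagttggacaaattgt
Tyms, minus strand, chr9:120776084-120776333: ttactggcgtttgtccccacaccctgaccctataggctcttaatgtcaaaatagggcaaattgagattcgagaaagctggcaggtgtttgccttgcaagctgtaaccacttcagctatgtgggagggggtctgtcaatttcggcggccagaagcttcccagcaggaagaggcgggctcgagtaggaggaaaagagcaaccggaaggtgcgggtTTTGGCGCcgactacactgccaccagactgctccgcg
Mcm6, minus strand, chr13:42404353-42404602: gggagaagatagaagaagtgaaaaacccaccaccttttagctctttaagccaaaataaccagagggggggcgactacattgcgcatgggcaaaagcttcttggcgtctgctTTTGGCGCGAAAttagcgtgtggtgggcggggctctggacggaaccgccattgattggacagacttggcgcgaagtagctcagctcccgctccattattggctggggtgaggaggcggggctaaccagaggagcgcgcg
Tk1 and Cdk2 held none of these letters in this window. Tyms held 1 E2F match that begins at base -37 from the start, and Mcm6 held 2 that overlap each other and begin at -139 and -135. E2F letters were in 6 of the 31 promoters (Cdk1, Mcm2, Mcm5, Mcm6, Mcm7 and Tyms), and in 1.5% of all 27457 rat promoters of this length. Pcna and Ccng1, also called lower at 1 µM and 72 h, held no E2F letters in this window. Cdk1, Mcm5 and Mcm7 held them but were not called at 72 h. The E2F letters therefore did not separate the genes that fell from the others. The CHR letters were in 8 of 31 against 16% of all promoters, and CCAAT was in 21 of 31 against 34.3%. The letters AGGTCA, the core recognised by nuclear receptors such as PPARα with its partner, were in 4 of 31 (Ccnb1, Cdk4, Birc5 and Gadd45a) against 13.7%. A match of letters does not show that a factor binds there.

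At 12 h, Tk1 read 6.33, 6.06 and 5.67 at 0 µM (no Rs632), 7.03, 6.97, 6.22 and 6.80 at 1 µM, and 6.94, 6.68 and 6.91 at 10 µM (no Rs627). The groups overlapped in the 1 µM comparison, where Rs631 lay under Rs627 at 0 µM, but each rat was higher than its own control. The rise was 0.74 ± 0.23 (adjusted p = 0.0452) at 1 µM and 0.82 ± 0.25 (0.025) at 10 µM. At 24 h it read 6.30, 5.74 and 5.78 at 0 µM (no Rs628), 7.41, 6.96, 6.18 and 6.68 at 1 µM, and 7.33, 6.49 and 7.38 at 10 µM (no Rs627). The rise was 0.87 ± 0.23, or 1.82-fold (adjusted p = 0.00355), at 1 µM and 1.13 ± 0.25, or 2.19-fold (0.000481), at 10 µM, with overlap at 1 µM, where Rs631 lay under Rs627 at 0 µM, and none at 10 µM.

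At 72 h, Tk1 read 6.00, 6.13, 5.69 and 5.87 at 0 µM, 6.79, 6.89, 6.30 and 6.93 at 1 µM, and 6.70, 6.45 and 6.92 at 10 µM (no Rs627), and no treated array lay as low as any control. It rose by 0.81 ± 0.22, or 1.75-fold (adjusted p = 0.0028), in 4 of 4 rats, and by 0.77 ± 0.23, or 1.71-fold (0.00796), in 3 of 3. A second Tk1 probe set gave rises of 0.73 and 0.67 at 1 µM and of 0.81 and 0.73 at 10 µM at 24 and 72 h, all past the threshold. Without Rs632 the Tk1 calls were lost at 24 h (adjusted p = 0.0913 at 1 µM, 0.12 at 10 µM) and at 72 h (0.0697 and 0.181). The 12 h call at 1 µM was lost without the doubtful 12 h arrays, when 1 control array remained.

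Cdk2 rose from control values that all lay under 5 to values around it. At 12 h it read 4.66, 4.42 and 4.77 at 0 µM (no Rs632), 5.69, 5.41, 5.32 and 4.96 at 1 µM, and 5.14, 5.06 and 5.29 at 10 µM (no Rs627). At 24 h it read 4.31, 4.13 and 4.61 at 0 µM (no Rs628), 5.33, 5.13, 4.81 and 5.36 at 1 µM, and 5.39, 4.59 and 5.67 at 10 µM, where Rs631 overlapped the controls. At 72 h it read 4.14, 3.99, 4.34 and 3.94 at 0 µM, 4.98, 5.06, 4.64 and 4.83 at 1 µM, and 5.10, 5.21 and 5.30 at 10 µM. At 12 and 72 h no treated array lay as low as any control of that time.

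The measured rise of Cdk2 at 1 µM was 0.73 ± 0.16 at 12 h (adjusted p = 0.000949), 0.81 ± 0.16 at 24 h (7.1e-05) and 0.78 ± 0.15 at 72 h (2.48e-05). At 10 µM it was 0.55 ± 0.17 (0.0298), 0.87 ± 0.17 (7.92e-05) and 1.10 ± 0.16 (5.27e-08). Since every control array of these groups lay under 5, the fold is only bounded, at least 1.12-fold at 24 h for 1 µM and at least 1.15-fold at 72 h for 10 µM. The 12 h calls were lost without the doubtful 12 h arrays, when 1 control array remained, while those at 24 and 72 h held under every alternative run. A second Cdk2 probe set rose at 72 h, by 0.97 (0.000731) and 1.18 (0.00011), but did not pass at 24 h, with 0.41 (0.21) and 0.54 (0.179).

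The counts at 12 h were small. At 1 µM 2 of 28 genes were called higher and 1 lower, where 3.96% of all genes were higher and 1.45% lower. At 10 µM 2 were higher and 1 lower, against 5.55% and 2.4%. The 3 mitotic genes tested had median changes of 0.28 at 1 µM and 0.35 at 10 µM, and Mki67 changed by -0.01 and 0.002. None of these genes was called without the block. With quantile normalization all genes split 379 higher to 258 lower at 1 µM in place of 350 to 128, and 489 to 431 at 10 µM in place of 491 to 212. Gadd45b, a stress gene induced in growing liver, read 9.36, 9.23 and 9.20 at 0 µM (no Rs632) and 7.92, 8.70, 8.71 and 9.0 at 1 µM (-0.68 ± 0.29, adjusted p = 0.212, 0.00548 with the rat block). Without the doubtful 12 h arrays that call was lost, with a change of -0.55 and an adjusted p of 0.399 with the block, when 1 control array remained.

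Myc was lower at 12, 24 and 72 h at both concentrations. At 12 h it read 9.98, 10.35 and 10.13 at 0 µM (no Rs632), 9.55, 9.52, 9.50 and 9.33 at 1 µM, and 9.60, 9.38 and 8.45 at 10 µM (no Rs627), without overlap. The change was -0.68 ± 0.16 (adjusted p = 0.00301) at 1 µM and -1.01 ± 0.17, or 2.01-fold lower (1.04e-05), at 10 µM, where Rs632 was the lowest. At 24 h it read 9.87, 10.16 and 9.84 at 0 µM (no Rs628), 8.78, 9.34, 9.60 and 8.97 at 1 µM, and 9.29, 9.62 and 8.98 at 10 µM (no Rs627), again with no treated array as high as a control.

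Myc thus fell by 0.78 ± 0.16 at 24 h and 1 µM, or 1.72-fold (adjusted p = 0.000147), and by 0.65 ± 0.17 at 10 µM (0.00384). At 72 h it read 9.78, 9.80, 10.14 and 9.86 at 0 µM, 9.43, 9.29, 9.69 and 9.43 at 1 µM, and 9.38, 9.55 and 9.48 at 10 µM. Each treated array lay under every control, and the change was -0.43 ± 0.15 (0.0226) and -0.42 ± 0.16 (0.04). These 72 h calls were fragile: at 1 µM the adjusted p was 0.0721 without Rs627, 0.0835 without Rs628 and 0.0725 without Rs632, and at 10 µM 0.058, 0.125, 0.112 and 0.117 without each rat in order, 0.055 with no filter and 0.07 after median centring. The 24 h call at 10 µM was lost without Rs632 (0.108). The 12 h call at 1 µM was lost without the doubtful 12 h arrays, when 1 control array remained.

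At 24 h the cell cycle genes called were Tk1, Cdk2, Myc and Ccng1, and at 1 µM also Mcm2. At 1 µM 2 of 28 were higher and 3 lower, where 7.06% of all genes were higher and 22.6% lower. The median of all genes there was -0.23, close to the -0.24 of the 28, and 2 of the 4 arrays at 1 µM were of low signal. Quantile normalization turned the split of all genes from 624 higher and 1995 lower into 907 and 1391. At 10 µM 2 of 28 were higher and 2 lower, against 6.43% and 10.7%, with medians of -0.14 for the 28 and -0.12 for all genes.

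With the rat block 3 genes were higher and 9 lower at 1 µM and 24 h, where 11.4% and 38.4% of all genes were called, and 3 higher and 5 lower at 10 µM, against 11% and 23.1%. Gadd45a was the added rise, from 9.94, 10.47 and 9.88 at 0 µM (no Rs628) to 10.23, 10.08, 10.71 and 10.86 at 1 µM, with overlap (0.37 ± 0.19, adjusted p = 0.123, 0.0183 with the block). The added falls at 1 µM were Ccnd1, Cdk4, Cdkn1b, Mcm4, Pcna and Tyms, and at 10 µM Ccnd1, Cdk4 and Gadd45b. The fall of Mcm2, a helicase subunit, at 1 µM was called with and without the block. It read 5.32, 5.50 and 6.17 at 0 µM (no Rs628) and 5.19, 5.51, 4.44 and 4.58 at 1 µM. The lowest values were those of Rs631 and Rs632, the arrays of low signal, and the groups overlapped. The change of -0.73 ± 0.27 (0.0345) became -0.31 (0.47) without the low-signal arrays, and was lost without Rs631 (0.151) or Rs632 (0.557).

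At 72 h the share of cell cycle genes called was close to the background, so the counts do not set these genes apart from other genes. At 1 µM 2 of 28 were called higher and 5 lower, where 11.3% of all genes were higher and 15.5% lower, and at 10 µM 2 were higher and 4 lower, against 12.5% and 15.6%. The median change of the 28 was -0.27 at 1 µM and -0.23 at 10 µM, and that of all genes -0.06 and -0.04. With the rat block 2 were higher and 9 lower at 1 µM, against 16.3% and 24% of all genes, and 2 higher and 8 lower at 10 µM, against 17.1% and 24%. The comparisons of 1 and 10 µM at a time share their 0 µM arrays and are not independent of each other. The map of changes shows each gene at each time.

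**Figure D3:**
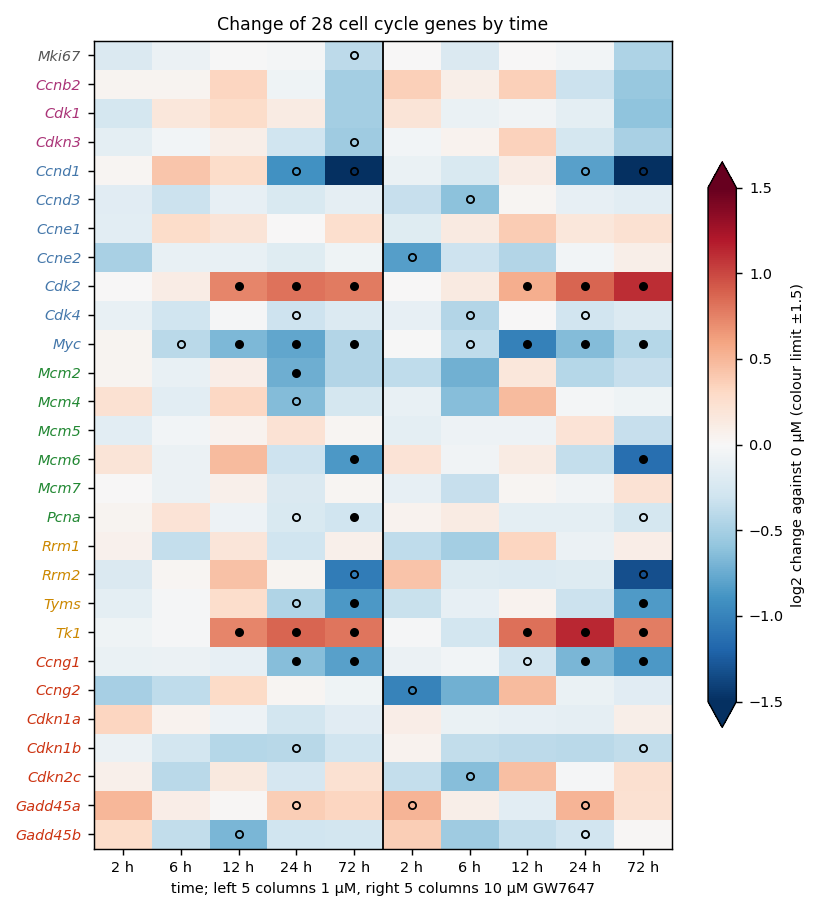
Log2 change against 0 µM (colour, limited to ±1.5) of the 28 tested cell cycle genes (y axis, label colours as the roles in the plot of levels) at the 5 times (x axis), for 1 µM in the left 5 columns and 10 µM in the right 5. Filled circles mark an adjusted p under 0.05 in the model without the rat, and open circles mark genes called only with the rat as a block. Only Tk1 and Cdk2 have filled circles on red, from 12 h on, and most circles on blue stand at 24 and 72 h.

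Among the genes of nucleotide supply, Tyms went opposite to Tk1. At 72 h it read 5.77, 5.70, 5.46 and 5.48 at 0 µM, 4.82, 4.37, 4.93 and 4.87 at 1 µM, and 4.78, 4.58 and 4.92 at 10 µM (no Rs627), so that every control lay above 5 and every treated array under it. The change was -0.86 ± 0.17 (adjusted p = 3.75e-05) and -0.85 ± 0.18 (0.00014), at least 1.52-fold lower at both concentrations, and it held under every alternative run. Rrm2 read 5.26, 6.50, 3.70 and 4.22 at 0 µM, 3.73, 4.15, 4.0 and 3.61 at 1 µM, and 3.66, 3.54 and 3.59 at 10 µM. Its control values were above 5 only in Rs627 and Rs628, and Rs631 was not lower at 1 µM. The change was -1.05 ± 0.63 (adjusted p = 0.227, 0.0137 with the rat block) at 1 µM and -1.32 ± 0.68 (0.146, 0.0135 with the block) at 10 µM. Rrm1, the large subunit of the same enzyme, was not called in any comparison, with or without the block.

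Of the licensing and fork genes, Mcm6 and Pcna were called at 72 h. Mcm6 read 4.99, 5.17, 3.97 and 4.45 at 0 µM, 3.57, 4.0, 3.79 and 3.80 at 1 µM, and 3.47, 3.33 and 3.73 at 10 µM (no Rs627). Only Rs628 at 0 µM was above 5, so no fold is given. The measured change was -0.86 ± 0.27 (adjusted p = 0.0108) at 1 µM, lost without Rs627 (0.153), and -1.13 ± 0.29 (0.00144) at 10 µM, which held under every alternative run.

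Pcna read 9.54, 9.53, 9.41 and 9.34 at 0 µM and 9.03, 9.14, 9.16 and 9.28 at 1 µM, without overlap, and fell by 0.30 ± 0.10, or 1.23-fold (adjusted p = 0.0125), which was no longer called when Rs627 (0.112) or Rs631 (0.0682) was left out. At 10 µM it read 9.29, 9.09 and 9.20 (-0.26 ± 0.10, 0.0526, 0.0065 with the rat block). Mcm2 read 5.80, 5.96, 5.39 and 5.73 at 0 µM, 5.35, 5.38, 5.08 and 5.30 at 1 µM, and 5.29, 5.49 and 5.34 at 10 µM, and was not called at 72 h. Mcm5 and Mcm7, which with Mcm2, Mcm3, Mcm4 and Mcm6 form the helicase ring, were not called in any comparison, with or without the block.

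The G1 cyclin gene Ccnd1 showed the widest change of the 28 at 72 h, and it was called only when cultures of one rat were compared. It read 7.02, 7.02, 5.01 and 6.17 at 0 µM, 5.54, 5.87, 3.36 and 4.37 at 1 µM, and 5.52, 3.54 and 4.09 at 10 µM (no Rs627). The groups overlapped because Rs631 was low at every concentration, but within a rat the values differed by -1.81 to -1.15 at 1 µM (lower in 4 of 4 rats) and by -2.08 to -1.47 at 10 µM (3 of 3). Without the block the change was -1.52 ± 0.90 (adjusted p = 0.216) and -1.92 ± 0.97 (0.136), and with it -1.52 ± 0.31 (3.94e-05) and -1.72 ± 0.34 (1.81e-05). Both other Ccnd1 probe sets had the same sign at 72 h, with -1.21 and -1.20 at 1 µM and -1.46 and -1.51 at 10 µM.

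At 24 h, Ccnd1 read 6.72, 5.24 and 7.28 at 0 µM (no Rs628), 6.39, 6.75, 3.42 and 5.48 at 1 µM, and 6.85, 4.34 and 5.60 at 10 µM (no Rs627). The groups overlapped, and the change was -0.90 (adjusted p = 0.479) and -0.82 (0.657), and with the rat block -1.17 (0.0034) and -0.89 (0.0499). The other D cyclin gene tested, Ccnd3, and the cyclin E genes Ccne1 and Ccne2 were not called at 24 or 72 h at 1 or 10 µM, with or without the block.

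Proliferation markers did not rise at 72 h. Mki67 read 5.08, 5.54, 4.45 and 4.69 at 0 µM, 4.57, 4.58, 4.87 and 4.17 at 1 µM, and 4.39, 4.48 and 4.58 at 10 µM (no Rs627). No treated array was above 5, against Rs627 and Rs628 of the controls. The change was -0.40 (adjusted p = 0.238, 0.0353 with the rat block) and -0.46 (0.2, 0.0644 with the block). Cdk1 read 4.19, 4.60, 3.20 and 3.43 at 0 µM, 3.30, 3.56, 3.28 and 3.23 at 1 µM, and 3.26, 3.33 and 3.15 at 10 µM, all under 5, and was not called with or without the block. Cdkn3, a phosphatase gene expressed in G2 and mitosis, was under 5 in all of these arrays, and its change at 1 µM was -0.53 (0.0884, 0.006 with the block). Top2a stayed under 5 in all 100 arrays, and its highest value was 4.24.

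The summed level of the stellate cell and fibroblast markers was lower in each rat beside these falls, while single markers went both ways. The log2 of their summed level over 11 genes was 9.45, 11.1, 8.47 and 9.99 at 0 µM and 72 h, 8.69, 8.29, 8.05 and 9.20 at 1 µM, and 8.04, 8.34 and 9.03 at 10 µM (no Rs627). The highest control, Rs628, was also the highest for Rrm2, Mki67 and Cdk1, and Rs631 was the lowest for all. The next highest control was Rs632 for the marker sum but Rs627 for these genes. Lox weighed most in the marker sums, with a mean of 8.26 over all arrays, the highest of the 11 markers. The sums therefore do not stand for the list as a whole, and the order of the rats without Lox was not tested. Of the 6 markers tested 3 fell at both concentrations, Col1a2 by 0.75 and 0.65, Acta2 by 0.55 and 0.67, and Lox by 2.86 and 3.01. Dcn, the gene of the matrix proteoglycan decorin, went the other way, by 1.06 at 1 µM (adjusted p = 0.141, 0.0012 with the rat block) and 1.29 at 10 µM (0.0872, 0.000452 with the block), with 0 controls and 1 array at each concentration above 5. Sums over the 6 bile duct markers ran from 9.86 to 11.3 at 0 µM, from 9.69 to 10.3 at 1 µM and from 9.48 to 10.3 at 10 µM, and none of the 4 tested was called without the block. With it Epcam, the gene of an epithelial adhesion protein, was called lower at 1 µM (-0.50, adjusted p = 0.267, 2.07e-06 with the block) and at 10 µM (-0.75, 0.101, 1.27e-08 with the block). Epcam weighed most in the bile duct sums, with a mean of 10.35 over all arrays, against 4.89 for Spp1, the next highest. In a bulk sample, fewer cells of a type and less RNA per cell cannot be told apart. The part of these markers in the falls of the cell cycle genes was not tested.

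Sums over the 9 macrophage markers ran from 9.87 to 10.5 at 0 µM, from 9.92 to 10.5 at 1 µM and from 9.73 to 10.4 at 10 µM. Of 3 tested, Lyz2 fell by 2.13 and 2.41 and Cd14 rose by 0.83 and 0.75. Both weighed most in the macrophage sums, with means of 8.81 and 9.30 over all arrays, against 4.38 for Cd68, the next highest. Sums over the 8 endothelial markers ran from 5.94 to 6.13 in the controls, with none above 5. Sums over the 11 hepatocyte markers averaged 15.7, 15.4 and 15.4 at 0, 1 and 10 µM, and 2 of them rose and 4 fell at 1 µM, and 3 rose and 5 fell at 10 µM, among them Ahsg (-1.50 and -2.21) and Asgr1 (0.81 and 0.75). The difference between the 3′ and 5′ actin probe sets averaged 1.66 at 0 µM, 1.97 at 1 µM and 1.90 at 10 µM at 72 h, and its part in these changes was not tested.

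Of the inhibitors and stress genes, Ccng1 changed and the classical inhibitor Cdkn1a did not pass the test. Ccng1 read 10.60, 10.87 and 10.84 at 0 µM and 24 h (no Rs628), 9.96, 10.10, 10.42 and 10.06 at 1 µM, and 10.05, 10.39 and 9.82 at 10 µM (no Rs627). At 72 h it read 10.79, 10.64, 10.82 and 10.96 at 0 µM, 9.87, 9.81, 10.15 and 10.09 at 1 µM, and 9.80, 10.11 and 9.89 at 10 µM. No treated array at either time was as high as any control of that time.

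Ccng1 thus fell by 0.63 ± 0.13 at 1 µM and 24 h (adjusted p = 7.75e-05) and by 0.82 ± 0.12, or 1.76-fold (3.65e-08), at 72 h, where 4 of 4 rats were lower. At 10 µM it fell by 0.68 ± 0.13 at 24 h (8.56e-05), a call lost without Rs632 (0.0892), and 1.82-fold at 72 h (5.53e-08). The calls at 1 µM and the call at 10 µM and 72 h held under every alternative run.

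Cdkn1a, which encodes the p53-induced inhibitor p21, read 8.54, 9.21, 9.22 and 9.40 at 0 µM and 72 h, 8.61, 8.57, 9.12 and 9.37 at 1 µM, and 9.32, 8.35 and 9.86 at 10 µM (no Rs627). The groups overlapped widely (-0.17, adjusted p = 0.667, and 0.08, 0.869), and Cdkn1a was not called in any comparison, with or without the block. Cdkn1b, the gene of the inhibitor p27, read 9.18, 8.97, 9.27 and 9.08 at 0 µM and 72 h, 8.92, 8.85, 8.85 and 8.67 at 1 µM, and 8.96, 8.73 and 8.58 at 10 µM. All treated arrays lay under every control, but the change of -0.37 at 10 µM was called only with the rat block (0.0919, 0.0362 with the block). At 1 µM and 24 h the change of Cdkn1b was -0.41 ± 0.17 (0.0521, 0.0168 with the block). Cdkn2c, the p18 inhibitor gene, was called only at 10 µM and 6 h and only with the block, and lay under 5 in all treated arrays there.

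Averaged over the 5 times, no cell cycle gene was called under 0.1 µM, and at 0.1 µM Cdk2, Ccng1 and Myc were. At 0.001 µM limma called 0 of 28 (0 at an unadjusted p under 0.05) and 0% of all genes in either direction, and at 0.01 µM 0 of 28 (1 unadjusted), against 0.656% higher and 0.0339% lower. At 0.1 µM 1 gene was higher and 2 lower, against 6.34% and 7.94%: Cdk2 (0.35 ± 0.08, adjusted p = 0.000477), Ccng1 (-0.21, 0.00933, lost without Rs632 at 0.191) and Myc (-0.23, 0.0307, lost without the doubtful 12 h arrays at 0.0709). As shares of the 28 these counts are no larger than those over all genes. At 1 µM 3 were higher and 4 lower, against 11.7% and 23.6%, and at 10 µM 3 higher and 6 lower, against 11.7% and 27.7%. Median changes of the 28 were -0.04, -0.04, -0.14, -0.12 and -0.14 with rising concentration, beside -0.02, -0.03, -0.04, -0.07 and -0.08 over all genes.

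The rises at 1 and 10 µM were those of Cdk2 (0.49 and 0.53), Tk1 (0.47 and 0.49) and Gadd45a (0.26 and 0.23, adjusted p = 0.0103 and 0.0262). The falls at both were those of Ccng1 (-0.35 and -0.39), Myc (-0.45 and -0.50), Cdkn1b (-0.30 at each, 0.000688 and 0.00134) and Tyms (-0.24 and -0.32, 0.0126 and 0.00143), and at 10 µM also Mcm2 (-0.34, 0.0231) and Ccne2 (-0.31, 0.0277). Gadd45a lost its call without Rs627 (0.112 and 0.176) or Rs632 (0.312 and 0.423), and at 1 µM without the low-signal arrays (0.0642). Tyms lost it at 1 µM without Rs627 (0.0763) or Rs632 (0.081) and after quantile normalization (0.0754), and at 10 µM without Rs631 (0.063), where Tk1 lost it without Rs632 (0.0693). Without the doubtful 12 h arrays 3 calls at 10 µM were lost, Mcm2 (0.0744), Ccne2 (0.0865) and Gadd45a (0.0776), and each held with the block and without those arrays (0.00608, 0.0109 and 0.00386). With the rat block 2 were higher and 5 lower at 0.1 µM, against 9.96% and 18.4% of all genes, 3 higher and 10 lower at 1 µM, against 15.5% and 34.6%, and 4 higher and 11 lower at 10 µM, against 15.5% and 38.4%. Tk1 was among the genes added at 0.1 µM (0.29, adjusted p = 0.0611, 0.000283 with the block).

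The steps between concentrations at 72 h differed between genes. Tk1 read 6.02, 6.05, 5.82 and 5.96 at 0.001 µM, 6.04, 6.21, 5.79 and 5.88 at 0.01 µM, and 6.54, 5.85 and 6.17 at 0.1 µM (no Rs627), so that arrays lay apart from all controls only from 1 µM on. Cdk2 read 4.73, 4.21 and 4.47 at 0.1 µM, with overlap. Ccng1 read 10.01, 10.66 and 10.32 at 0.1 µM, where Rs631 lay within the controls.

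Tyms and Ccnd1 were among the genes that were lower at smaller concentrations. Tyms read 4.89, 5.27, 5.20 and 5.25 at 0.001 µM, 5.11, 5.46, 4.54 and 4.99 at 0.01 µM, and 4.68, 5.04 and 4.98 at 0.1 µM, against controls of 5.46 to 5.77. Within a rat Ccnd1 differed by -1.23 to -0.51 at 0.01 µM (lower in 4 of 4 rats) and by -1.66 to -1.42 at 0.1 µM (3 of 3). Ccnd3, Ccne2, Ccng1, Mcm2, Mcm4, Mcm6, Mcm7 and Pcna were also lower in 4 of 4 rats at 0.01 µM. Tk1 was higher in 4 of 4. The share of all genes tested that were lower in 4 of 4 rats there was not counted. These falls are therefore not shown to be particular to the cell cycle genes. The 75th percentile of the 72 h arrays averaged 6.98 at 0 µM and 6.83, 6.73 and 6.79 at 0.001, 0.01 and 0.1 µM. Its part in these values was not tested. These single concentrations under 1 µM at 72 h were not among the comparisons tested.

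**Figure D4:**
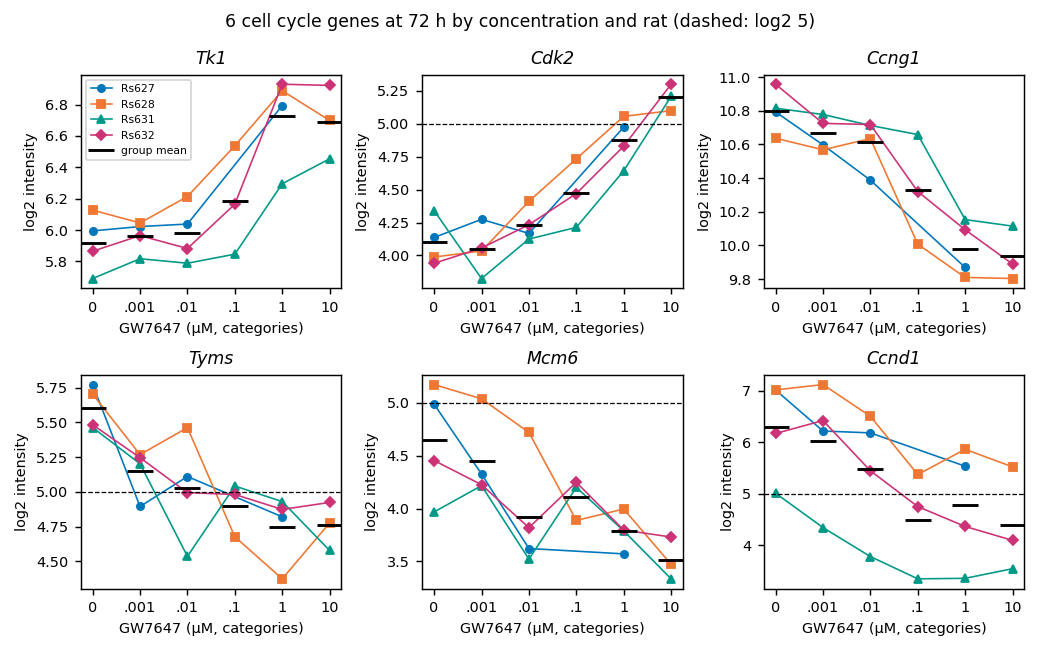
Log2 intensity (y axis) of 6 cell cycle genes at 72 h against the concentration of GW7647 (x axis, drawn as categories), 1 line per rat and a black bar for each group mean. The dashed line marks log2 5 where it lies in range. Tk1 and Cdk2 are higher in every rat at 1 and 10 µM than at 0 µM, Ccng1, Tyms, Mcm6 and Ccnd1 are lower, and the line of Rs631 lies lowest for Ccnd1 at each concentration.

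Whether the response at 72 h differed from that at 2 h was tested as the difference between the changes. At 1 µM 1 of 28 genes was called higher and 1 lower, against 4.4% and 4.26% of all genes: Cdk2 (0.77, adjusted p = 0.0186) and Ccng1 (-0.72, 0.00418). At 10 µM 1 was higher and 2 lower, against 8.45% and 6.16%: Cdk2 (1.09, 0.000231), Ccng1 (-0.77, 0.00102) and Mcm6 (-1.34, 0.0162). With quantile normalization the split of all genes at 10 µM was 844 higher to 825 lower, and 756 to 428 after median centring, in place of 747 to 545. Median differences of the 28 were -0.23 and -0.24, beside -0.08 and 0.05 over all genes.

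With the rat block 2 were higher and 4 lower at 1 µM, against 7.75% and 10.2%, and 3 higher and 3 lower at 10 µM, against 13.9% and 12.3%. Tk1 was among the added genes (0.88, adjusted p = 0.0877, 0.00206 with the block, and 0.78, 0.101, 0.001 with the block), and so was Ccnd1 (-1.55, 0.587, 0.0194 with the block, and -1.82, 0.42, 0.0253 with the block). Most calls made without the block were lost when 1 rat was left out. At 1 µM Cdk2 was lost without Rs627 (0.0942), Rs628 (0.27) or Rs632 (0.0725) and Ccng1 without Rs627 (0.0778) or Rs632 (0.148). At 10 µM Ccng1 was lost without Rs632 (0.0804) and Mcm6 without Rs627 (0.103), Rs628 (0.127) or Rs632 (0.0506).

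Other genes of the same pathways, from lists that do not share the 39 genes, changed at 72 h about as often as all genes or less. Over all genes 11.3% rose and 15.5% fell at 1 µM, and 12.5% rose and 15.6% fell at 10 µM. Of 32 tested genes of DNA replication and S phase (46 of 52 had a probe set, 13 never above 5), 4 rose and 1 fell at 1 µM and 3 rose and 1 fell at 10 µM, with median changes of 0.02 and 0.13. Cdc25a, the phosphatase that activates Cdk2, had every control under 5 and every 10 µM array above it, and rose by 1.40, at least 1.77-fold. Rpa3, a subunit of the single-strand binding protein, rose by 0.89 and Rb1, the retinoblastoma gene, by 0.73, while E2f5, an E2F family gene of the repressing kind, fell by 1.28.

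Of 16 tested genes of G2 and mitosis (42 of 47 had a probe set, 22 never above 5), 1 rose and 1 fell at 1 µM and 1 rose and 2 fell at 10 µM, with medians of -0.18 and -0.28. The rise was that of Spc24, a kinetochore gene, whose mean went from 4.68 at 0 µM to 7.96 at 10 µM, at least 7.78-fold. The falls were those of Smc2, a condensin gene (-1.48 and -1.37), and at 10 µM of Cks2, a Cdk partner (-0.97).

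The p53 targets fell more often than they rose. Of 14 tested (15 of 20 had a probe set), 0 rose and 6 fell at 1 µM and 0 rose and 6 fell at 10 µM at 72 h, with medians of -0.45 and -0.49, and at 24 h 0 rose and 9 and 7 fell. Over all genes 15.5% and 15.6% fell at 72 h and 22.6% and 10.7% at 24 h. At 10 µM and 72 h the death receptor gene Fas fell by 1.42 (adjusted p = 8.76e-08), Zmat3, an RNA-binding protein gene, by 1.20 (5.64e-06), the nuclease gene Aen by 0.73, and Mdm2, which limits p53, by 0.56 (0.00667). Ccng1, described above, is also a known p53 target, while Cdkn1a, the best known, did not pass. Gadd45a, grouped with both among the inhibitors and stress genes, went the other way and was called higher at 1 and 10 µM when averaged over times.

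Of 14 tested immediate early growth genes (17 of 18 had a probe set), 1 rose and 5 fell at 1 µM and 2 rose and 6 fell at 10 µM at 72 h, with medians of -0.69 and -0.84, where 11.3% and 12.5% of all genes rose and 15.5% and 15.6% fell. Id1, an inhibitor of differentiation, rose by 1.58 at 10 µM, while its relative Id3 fell by 1.66, Klf6 by 0.99 and Jun by 0.75. All 10 tested PPARα targets rose at 1 and 10 µM at 72 h, with medians of 2.46 and 2.59. Acot1, a thioesterase, rose by 8.03 and 8.14, Pdk4, which shuts pyruvate out of oxidation, by 4.13 and 4.27, and Cpt1a, the carnitine acyltransferase, by 1.75 and 2.04.

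**Figure D5:**
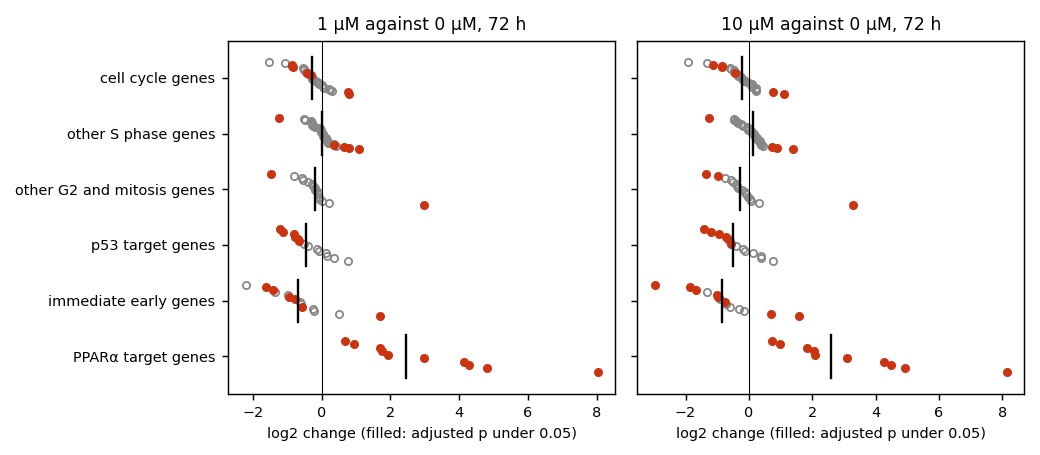
Log2 change at 72 h (x axis) of every tested gene of 6 gene lists (y axis), at 1 µM (left) and 10 µM (right) against 0 µM. Each circle is a gene, filled where the adjusted p was under 0.05, and the black bar is the median of the list. The medians of the cell cycle genes, -0.27 and -0.23, lie below 0, and those of the p53 targets and immediate early genes lie further below it. Those of the PPARα targets lie at 2.46 and 2.59.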

How the data were processed

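The deposited table holds log2 intensities for 31139 probe sets of 100 arrays, made by the authors with tools that the submitters' processing notes list as Partek and GCRMA, giving neither versions nor the order of use. Builds and other settings are not given in the sources used here. GCRMA models background from probe sequence and adjusts arrays to each other, so values near the floor are compressed, and log2 changes there are small. Of the probe sets 19069 had 1 gene symbol, 572 several and 11498 none, which gave 13439 genes by highest mean. Arrays have no read depth, and precision is limited by how many there are.

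A linear model of 30 group means was fitted to all 100 arrays as deposited with limma 3.58.1 in R 4.3.3, with 70 residual and 2.58 prior degrees of freedom. P-values are two-sided and Benjamini-Hochberg adjusted over the 8843 genes tested, per comparison, with a threshold of 0.05. Where a group had no value above 5, a fold is printed as a lower bound, with the mean of that group set to 5. The other group keeps its own mean, and no bound is given where that mean did not exceed 5. Tables and figures were made with Python 3.11.15, pandas 2.3.3 and matplotlib 3.10.9, and the scripts were checked on simulated data.

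Since the labels give the rat of each array, arrays of a rat are paired. Deviations from group means correlated at a median of 0.62 within a rat (lowest rat 0.52) and -0.22 between rats. The rat as a replicate block (67 residual degrees of freedom) is an alternative, printed where it changes a call or moves a count by over 1.5 times. The other alternatives were the arrays of the compared times alone, no filter, quantile normalization, median centring, leaving out the 5 low-signal arrays, the doubtful 12 h arrays or each rat, and 3 joint settings of the block, chosen after seeing the data.

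The 39 genes, the other gene lists, the tests and the alternatives were chosen with earlier results of these data known. Every one of the 39 may be named. Values per array are given for the 6 with the smallest p among those past the threshold in a comparison. At 72 h they are given for Mki67, Ccnd1, Cdk1, Mcm2, Pcna, Myc and Cdkn1a whatever their p. For Top2a only the highest value is given. Values of other members called only with the block were added after seeing them. Up to 4 genes past the threshold are named per other list, beside Pdk4, Ehhadh, Cpt1a and Acot1. Promoter sequences are RefSeq's of GRCr8.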

Additional observations from a re-analysis of the deposited data

Results flagged for a closer look

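In groups of 4 arrays, 1 array lay far from the other 3, by Dixon's test at the 95% level, for 27 of 336 combinations of a cell cycle gene and a group. Chance flags about 1 in 20 groups, here 16.8.

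The most clustered were those of Rs628 at 0.01 µM and 72 h, where Cdk1 read 4.80 (others 3.45 to 3.68), Cdk4 8.86 (8.06 to 8.10), Rrm1 6.32 (5.10 to 5.29) and Rrm2 6.05 (3.94 to 4.12), all higher than in the other rats. At 72 h Rs631 was lower in Cdkn3 at 0 µM (3.76, others 4.43 to 4.48) and at 0.001 µM (3.76, others 4.46 to 4.57), in Ccnb2 at 0.001 µM (3.28, others 4.12 to 4.18) and in Rrm1 at 1 µM (6.04, others 6.29 to 6.30). Mcm6 in Rs628 at 0.001 µM read 5.04 (4.22 to 4.33).

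At 2 h and 10 µM, Rs627 was lower in Cdkn1a (9.10, others 9.59 to 9.63) and Myc (10.14, others 10.45 to 10.50) and higher in Tk1 (6.36, others 5.92 to 5.96). In the same group Pcna read 10.19 in Rs628 (9.94 to 9.97) and Ccng2 5.05 in Rs632 (6.62 to 6.92). Mcm5 read 5.09 in Rs631 at 0.1 µM and 2 h (4.69 to 4.71), in an array of low signal.

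At 6 h Rs631 at 0 µM read 4.79 for Ccnd1 (7.76 to 8.12) and 6.69 for Rrm1 (6.22 to 6.28). At 1 µM and 6 h Mcm6 read 4.82 in Rs628 (5.28 to 5.36) and Gadd45b 8.06 in Rs627 (8.93 to 9.0). Ccnd3 read 5.67 in Rs632 at 1 µM and 12 h (6.11 to 6.17).

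At 24 h Rs631 read 5.50 for Tk1 at 0.001 µM (6.23 to 6.26), 3.49 for Ccnd1 (6.52 to 7.13) and 3.60 for Mcm6 (4.21 to 4.32) at 0.01 µM, and 9.22 for Cdkn1a (8.73 at both ends) and 4.15 for Cdkn2c (5.29 to 5.38) at 1 µM, in an array of low signal. Tk1 read 6.64 in Rs628 at 0.01 µM (5.96 to 6.07), and Mcm6 4.52 in Rs627 at 1 µM (4.0 to 4.07).

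The change at 72 h differed from that at 2 h by limma's test of the difference for Ccng1 at 1 µM (-0.72) and 10 µM (-0.77), Cdk2 at 1 µM (0.77) and 10 µM (1.09), and Mcm6 at 10 µM (-1.34). The cause was not tested for any of these.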

How the results depend on the processing

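Of 54 changes of single genes named in the report, 24 kept their call under every alternative, 30 lost it under at least 1, and 0 changed sign. Values below are counts of the 28 tested genes called, given for 2, 6, 12, 24 and 72 h in order and then for the other comparisons, and the cause of a difference was not tested unless the setting itself drops arrays or genes.

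With the rat as a replicate block the count at 1 µM went from 0 to 1 at 6 h, from 5 to 12 at 24 h and from 7 to 11 at 72 h, and at 10 µM from 0 to 3 at 2 h, 0 to 4 at 6 h, 4 to 8 at 24 h and 6 to 10 at 72 h. The averages went from 3 to 7, 7 to 13 and 9 to 15 at 0.1, 1 and 10 µM, the untreated comparisons of 24 and 72 h with 2 h from 1 to 3 each, and the differences between 72 and 2 h from 2 to 6 and 3 to 6. The block changed no other count by over 1.5 times. With the replicate block and median centring the changed counts were 1, 12 and 11 at 1 µM (6, 24, 72 h), 3, 4 and 9 at 10 µM (2, 6, 24 h), 7, 13 and 14 for the averages, 2 for 72 h at 0 µM, and 5 and 6 for the differences. With the replicate block and without low-signal arrays they were 1, 5 and 14 at 1 µM (6, 12, 72 h), 3, 5 and 11 at 10 µM (2, 12, 72 h), 8 and 12 for the averages at 0.1 and 1 µM, 4 and 5 for 0 µM, and 6 and 9 for the differences. With the replicate block and without the doubtful 12 h arrays they were 1 at 1 µM and 12 h, and 7 and 12 for the averages at 0.1 and 1 µM.

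With only the arrays of the compared times the count was 1 at 1 µM and 6 h, 1 at 12 h at each concentration, 2 for 72 h at 0 µM and 5 for the difference at 10 µM. With no filter it was 1 at 10 µM and 6 h and 2 and 3 for 24 and 72 h at 0 µM. The latter was 0 after quantile normalization and after median centring, and 2 without low-signal arrays. Without the doubtful 12 h arrays 0 were called at 1 µM and 12 h. Leaving out each rat gave 0 to 0, 0 to 0, 1 to 3, 3 to 9 and 4 to 8 at 1 µM, 0 to 0, 0 to 3, 1 to 2, 1 to 5 and 4 to 6 at 10 µM, 0 to 0, 0 to 0, 1 to 3, 5 to 11 and 6 to 13 for the averages, 1 to 1 and 0 to 1 for 0 µM, and 0 to 2 and 1 to 3 for the differences. Values at or under 5 limit Mki67, Cdk1, Cdkn3, Mcm6, Rrm2 and Cdk2.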
